A study of Rattus norvegicus with 18 samples.

Results

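The miRNAs described here are miR-126a, miR-143 and miR-145, which mark the walls of blood vessels within muscle. Every row of the count table whose name is miR-126a, miR-143 or miR-145, with either arm of the hairpin, was taken, which gave 6 of 909 entries, namely rno-miR-126a-3p, rno-miR-126a-5p, rno-miR-143-3p, rno-miR-143-5p, rno-miR-145-5p and rno-miR-145-3p. They were measured by small RNA sequencing of gastrocnemius muscle, the large calf muscle, from male Brown Norway rats, an inbred wild-type strain. The 6 young AL rats (replicates 1 to 6) were 6 months old and fed ad libitum. The 6 old AL rats (replicates 7 to 12) were 28 months old and fed ad libitum. The 6 old CR rats (replicates 13 to 18) were 28 months old and on caloric restriction (CR), at 55% of the ad libitum intake. All rats were fed ad libitum until maturity and were then housed singly. The comparisons ask whether these vessel miRNAs differ with age and with CR, and whether the endothelial miRNA moves with the smooth muscle miRNAs.

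A miRNA is cut from a hairpin precursor, and either arm of the hairpin, named 5p or 3p, can be loaded into the silencing complex, where its seed (bases 2 to 8) pairs with target messenger RNAs. miR-126 lies in an intron of Egfl7, a gene of endothelial cells, and is known for maintaining vessel integrity and the response to VEGF. miR-143 and miR-145 are processed from a shared transcript, Carmn, and are known for keeping vascular smooth muscle cells in their contractile state. In skeletal muscle, endothelium lines the capillaries between the fibres, whereas smooth muscle surrounds the arterioles and larger vessels.

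The mature sequences below are those the counts stand for, taken from RefSeq (GRCr8) and written 5′ to 3′ with the seed in capitals. They are shown because each arm has its own seed and so its own targets.
rno-miR-126a-3p: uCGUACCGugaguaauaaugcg
rno-miR-126a-5p: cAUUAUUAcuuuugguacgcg
rno-miR-143-3p: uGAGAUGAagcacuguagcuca
rno-miR-143-5p: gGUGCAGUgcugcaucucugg
rno-miR-145-5p: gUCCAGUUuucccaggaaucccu
rno-miR-145-3p: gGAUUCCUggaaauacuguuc
The 6 seeds differ from each other, and 0 of the other mature sequences in the RefSeq table of 693 carry any of them. miR-143 and miR-145 are therefore not a family by sequence, although RefSeq places both genes inside Carmn. RefSeq places the miR-126 hairpin inside Egfl7. The arms sit in the hairpins of Mir143 (105 bases) and Mir145 (88 bases) as follows, with the mature arms in capitals and the 5p arm first.
Mir143 hairpin: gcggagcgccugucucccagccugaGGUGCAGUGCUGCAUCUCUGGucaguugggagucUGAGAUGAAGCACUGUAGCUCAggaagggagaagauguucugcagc
Mir145 hairpin: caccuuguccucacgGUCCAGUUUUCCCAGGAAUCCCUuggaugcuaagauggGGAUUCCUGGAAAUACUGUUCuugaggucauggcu

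Each library held 34940346 to 83110905 counts, of which the miR-1 family of striated muscle took 60.7 to 86.8%. Levels are therefore given as CPM, counts scaled to a common total, after TMM scaling, which adjusts each library for its composition, unless a ratio within a library is named. The 6 vessel entries together held 0.681 to 2.45% of the counts. The miR-1 family as taken here includes a predicted candidate whose counts match those of a miR-1 entry. Counts may thus be shared between entries, so these totals and percentages are of counts and not of separate reads. The tissue is whole muscle, so that fewer cells of a type and less miRNA per cell cannot be told apart.

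miR-126a-3p and miR-143-3p were among the most abundant miRNAs of the muscle, ranking 14th and 12th of 763 known miRNAs by mean level. miR-145-5p ranked 50th. The opposite arms were far lower, with miR-126a-5p at rank 86, miR-145-3p at rank 99 and miR-143-5p at rank 114. The order of the 6 mean levels was the same in each group. miR-143-3p and miR-126a-3p, next to each other in that order, overlapped in range in every group, as did miR-126a-5p with miR-145-3p, and miR-145-3p with miR-143-5p in young AL. miR-145-5p lay apart from its neighbours in every library. The 3p arm gave 97.8 to 99.2% of miR-126a counts and 99.0 to 99.6% of miR-143 counts. The 5p arm gave 82.4 to 93.3% of miR-145 counts, so that its minor arm was the largest share among the 3 hairpins.

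miR-126a-3p, the main endothelial arm, ranged from 4625 to 7938 CPM in young AL, with a median of 6222. In old AL it ranged from 3746 to 7192 CPM, with a median of 4707. In old CR it ranged from 3890 to 6719 CPM, with a median of 5267. The groups overlapped, although 5 of 6 old AL libraries lay below the young AL median and 2 of them below every young AL library. The highest old AL value was that of replicate 8.

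miR-126a-5p, the arm that lies opposite in the same hairpin, was at 63.2 to 125 CPM in young AL (median 95.3). It was at 67.6 to 105 CPM in old AL (median 83.9) and at 56.7 to 112 CPM in old CR (median 80.0). All 3 groups shared most of their range.

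miR-143-3p, the main smooth muscle arm, ranged from 4763 to 9625 CPM in young AL, with a median of 6251. It ranged from 4468 to 9312 CPM in old AL (median 6613) and from 4487 to 8310 CPM in old CR (median 5644). No group stood apart. miR-143-5p was at 22.5 to 57.9 CPM in young AL (median 39.0), at 24.6 to 41.4 CPM in old AL (median 33.5) and at 21.6 to 49.3 CPM in old CR (median 43.2).

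miR-145-5p, the arm of miR-145 known for repressing factors of smooth muscle dedifferentiation, ranged from 274 to 594 CPM in young AL, with a median of 513. It ranged from 388 to 673 CPM in old AL (median 503) and from 332 to 694 CPM in old CR (median 402). The young AL minimum belonged to replicate 3 and the old CR maximum to replicate 15, and both stood away from the rest of their group. miR-145-3p was at 40.9 to 75.2 CPM in young AL (median 55.6), at 43.2 to 73.3 CPM in old AL (median 61.3) and at 51.7 to 82.0 CPM in old CR (median 59.4).

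**Figure D1:**
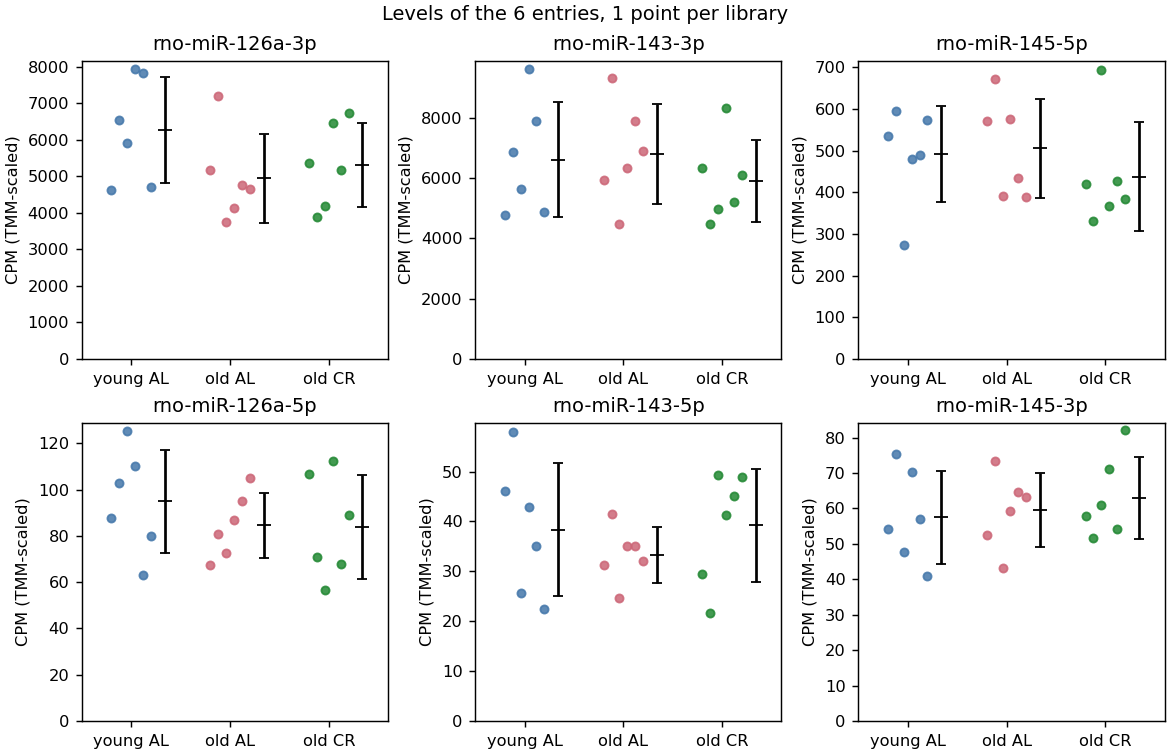
Level of each entry (vertical axis, CPM after TMM scaling, from 0) in young AL, old AL and old CR. Each point is 1 library, and the bar beside the points is the mean ± SD (n = 6). The groups overlap in every panel, and miR-126a-3p has its lowest mean in old AL (4940 ± 1212).

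None of the 6 entries was called in any comparison, a call needing a fold change of 1.5 or more together with an adjusted p of 0.05 or less in edgeR's quasi-likelihood test. The background in old AL against young AL was 3.28% of the 732 entries tested (24 called, 171 at an unadjusted p under 0.05). In old CR against young AL it was 9.32% of 730 (68 called, 186 at an unadjusted p under 0.05). In old CR against old AL it was 0.272% of 736 (2 called, 88 at an unadjusted p under 0.05). A count of 0 of 6 is close to what these shares give, so nothing particular to the vessel miRNAs follows from it. At an unadjusted p under 0.05 the edgeR count was also 0 of 6 in each comparison, and DESeq2 called 0 of 6.

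The endothelial main arm had the lowest adjusted p of the 6 in the age comparison. miR-126a-3p averaged 6255 ± 1454 CPM in young AL (SD, n = 6) and 4940 ± 1212 CPM in old AL (SD, n = 6). Its log2 fold change was -0.35 (SE 0.180, edgeR adjusted p 0.258), with a 95% interval from -0.74 to 0.04, which includes no change. In old CR it averaged 5296 ± 1153 CPM, with a log2 fold change of -0.26 against young AL (adjusted p 0.479, edgeR) and 0.11 against old AL (adjusted p 0.897, edgeR). miR-126a-5p gave log2 fold changes of -0.16, -0.19 and -0.01 in the same comparisons, with edgeR adjusted p of 0.679, 0.696 and 0.998.

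Some entries of the leukocyte and platelet list were high in 1 old AL library. The 8 entries of miR-142, miR-150, miR-155 and miR-223 summed to 611 CPM in old AL replicate 8 and to 240 CPM in old CR replicate 18, against 111 to 184 CPM in the other 16 libraries. These 2 libraries also held the highest miR-126a-3p of their groups. Old AL replicate 8 was likewise the highest of its group for miR-143-3p (9312 CPM), miR-145-5p (673 CPM) and their minor arms. It was not the highest for miR-126a-5p. The highest miR-126a-3p levels of all libraries were 7938 and 7823 CPM, in young AL replicates 4 and 5. The leukocyte and platelet sums of those young AL replicates lay within the 111 to 184 CPM of the other 16 libraries. Without old AL replicate 8 the log2 fold change of miR-126a-3p with age was -0.47 (SE 0.167, edgeR adjusted p 0.140). It was -0.28 without young AL replicate 5 (edgeR adjusted p 0.483), and -0.15 when library totals replaced TMM (edgeR adjusted p 0.867). The erythroid entries of miR-451 and miR-144 summed to 11.8 CPM in old AL replicate 8 and 9.50 CPM in old CR replicate 18. In the other 16 libraries they summed to 3.43 to 9.95 CPM. The part of blood cells in the level of miR-126a-3p, which platelets and some blood cell progenitors also carry, was not tested.

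The main smooth muscle arms had log2 fold changes close to 0 with age. miR-143-3p averaged 6606 ± 1906 CPM in young AL, against 6802 ± 1668 in old AL and 5898 ± 1368 in old CR (SD, n = 6 each). Its log2 fold change with age was 0.04 (interval -0.41 to 0.49, edgeR adjusted p 0.954). Against young AL and old AL, old CR gave -0.18 and -0.20 (edgeR adjusted p 0.708 and 0.760). miR-145-5p averaged 492 ± 115, 505 ± 118 and 438 ± 131 CPM in the 3 groups. Its log2 fold changes of 0.03, -0.18 and -0.20 were near those of miR-143-3p, with edgeR adjusted p of 0.971, 0.703 and 0.747. The intervals of these 2 main arms reached from -0.65 to 0.49 over the 3 comparisons, so that changes larger than this in either direction lie outside them.

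The minor arms were not called either, and their values had other signs than the main arms in places. miR-143-5p averaged 38.3 ± 13.3, 33.3 ± 5.54 and 39.2 ± 11.3 CPM in young AL, old AL and old CR, with log2 fold changes of -0.21, 0.02 and 0.24 (edgeR adjusted p 0.656, 0.982 and 0.704). miR-145-3p averaged 57.5 ± 13.1, 59.4 ± 10.4 and 63.0 ± 11.5 CPM, with log2 fold changes of 0.04, 0.12 and 0.09 (edgeR adjusted p 0.928, 0.792 and 0.908). The median log2 fold change of all entries was 0.06, 0.08 and 0.01. Scaling by library totals instead moved that median to 0.23, -0.05 and -0.27, and reversed the sign for miR-126a-3p (-0.20) and miR-145-3p (-0.14) in old CR against old AL.

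**Figure D2:**
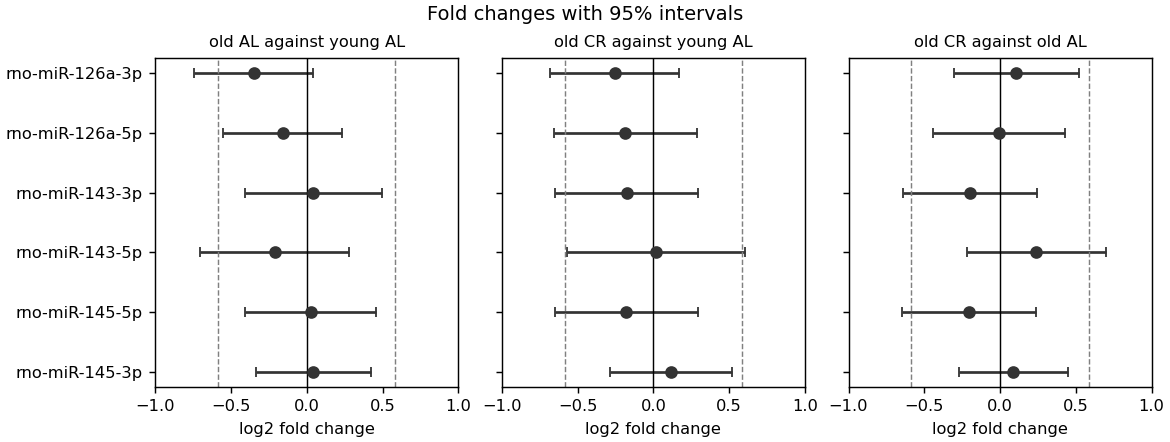
Log2 fold change of each entry (horizontal axis) with its 95% interval (bars) in the 3 comparisons. The solid line marks no change and the dashed lines a fold change of 1.5. Every interval crosses 0, and miR-126a-3p in old AL against young AL comes nearest to leaving it (-0.74 to 0.04).

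The endothelial and smooth muscle miRNAs were next set against each other within each library, which removes the scaling between libraries. miR-126a-3p was nearly as abundant as miR-143-3p in young muscle, with ratios of 0.971, 0.953, 1.05, 0.825, 0.992 and 0.967 in replicates 1 to 6. In old AL the ratios were 0.872, 0.772, 0.838, 0.650, 0.605 and 0.674 in replicates 7 to 12. In old CR they were 0.847, 0.867, 0.838, 0.778, 0.996 and 1.10 in replicates 13 to 18. Of the old AL libraries, 4 of 6 lay below every young AL library, whereas the old CR libraries spread over the upper old AL values and the young AL values.

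The mean log2 ratio of miR-126a-3p to miR-143-3p was lower in old AL, with a difference from young AL of -0.39 (SE 0.0988, exact two-sided permutation test p = 0.00649). It was higher in old CR than in old AL by 0.30 (SE 0.115, exact permutation p = 0.0325). Old CR and young AL differed by -0.09 (SE 0.0893, exact permutation p = 0.327). After the Benjamini-Hochberg adjustment over the 18 tests of this kind (6 ratios in 3 comparisons), the exact permutation p became 0.117, 0.292 and 0.735, so that no difference passed the correction. The smallest p that 6 against 6 libraries allow is 0.00216. Leaving out each library in turn kept the first difference between -0.44 and -0.34, and its adjusted p between 0.0779 and 0.234.

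The same ratio against miR-145-5p was more scattered. miR-126a-3p exceeded miR-145-5p by 8.19 to 21.6 times in young AL (median 13.5), 7.15 to 12.0 times in old AL (median 10.1) and 6.01 to 17.6 times in old CR (median 12.4). The difference in log2 ratio was -0.39 in old AL against young AL, with an SE of 0.254 (exact permutation p = 0.156), and moved between -0.52 and -0.24 as each library was left out, the latter without young AL replicate 3. It was -0.07 in old CR against young AL (exact permutation p = 0.825) and 0.32 in old CR against old AL (exact permutation p = 0.225). Without old CR replicate 15 the last difference was 0.53 (exact permutation p = 0.00866, adjusted 0.0779), while the other omissions gave 0.22 to 0.38. The young AL libraries alone spanned most of the values seen.

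The mean ratio of the 2 smooth muscle miRNAs was similar in the groups, beside a wide spread from rat to rat. The ratio of miR-143-3p to miR-145-5p had a geometric mean of 13.4 in both AL groups and of 13.6 in old CR. Within young AL it ran from 8.47 to 20.6, within old AL from 10.4 to 18.2 and within old CR from 7.18 to 22.7. The differences in mean log2 ratio were 0.0027, 0.02 and 0.02, with SEs of 0.274, 0.322 and 0.266 (exact permutation p = 0.987, 0.942 and 0.944). SEs of this size do not exclude a difference between the groups.

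**Figure D3:**
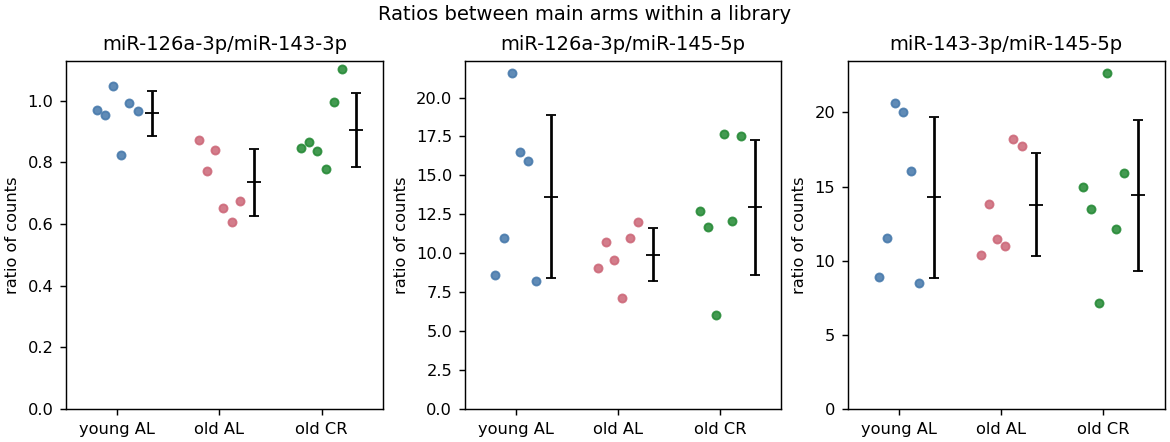
Ratio of counts within a library (vertical axis, from 0) for miR-126a-3p over miR-143-3p, miR-126a-3p over miR-145-5p and miR-143-3p over miR-145-5p. Points are libraries and bars are mean ± SD (n = 6). In the first panel old AL sits at 0.605 to 0.872 and young AL at 0.825 to 1.05, and in the other panels the groups overlap widely.

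Across the 18 libraries, miR-126a-3p varied together with miR-143-3p. Pearson's r of their log2 CPM was 0.763 (permutation p adjusted over 15 pairs = 0.002925) and Spearman's rho was 0.732 (adjusted permutation p = 0.007425). Without young AL replicates 4 and 5, the 2 libraries farthest from the median of miR-126a-3p, r was 0.678. Within young AL, old AL and old CR, each with 6 libraries, r was 0.966, 0.815 and 0.829, so the relation also held inside the groups. The plot of the pairs shows the old AL libraries on the lower side of this relation, as the ratios do.

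miR-143-3p and miR-145-5p, although processed from a shared transcript, showed little relation after TMM scaling. Their r was 0.140 (adjusted permutation p = 0.669) and their rho 0.129 (adjusted permutation p = 0.703), and r was -0.048 without young AL replicate 4 and old AL replicate 8. By contrast, the minor arms miR-143-5p and miR-145-3p gave r of 0.762 (adjusted permutation p = 0.002925) and rho of 0.705 (adjusted permutation p = 0.00785), and r of 0.745 without young AL replicate 2 and old CR replicate 14. miR-143-3p and miR-145-3p gave r of 0.695 (adjusted permutation p = 0.0075) and rho of 0.723 (adjusted permutation p = 0.007425), and r of 0.639 without young AL replicate 4 and old AL replicate 8. The difference between these coefficients was not tested. The relation of miR-143-3p to miR-145-5p depended on the scaling. With library totals r was 0.717 (adjusted permutation p = 0.00116), and with the total outside the miR-1 family it was 0.359 (adjusted permutation p = 0.181).

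miR-126a-3p and miR-145-3p gave r of 0.582 (adjusted permutation p = 0.0426) and rho of 0.546 (adjusted permutation p = 0.0777), and r of 0.638 without young AL replicates 4 and 5. The arms of 1 hairpin did not pass the test with each other, with r of 0.329 for miR-126a (adjusted permutation p = 0.276), 0.382 for miR-143 (adjusted permutation p = 0.195) and 0.168 for miR-145 (adjusted permutation p = 0.630). Their rho was 0.346, 0.319 and 0.179 (adjusted permutation p = 0.245, 0.267 and 0.594). All points share the scaling factor of their library. With library totals in place of TMM, 15 of 15 pairs passed the test on r, against 4 of 15 with TMM, and the pair of miR-126a-5p and miR-145-5p turned from -0.45 to 0.49.

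**Figure D4:**
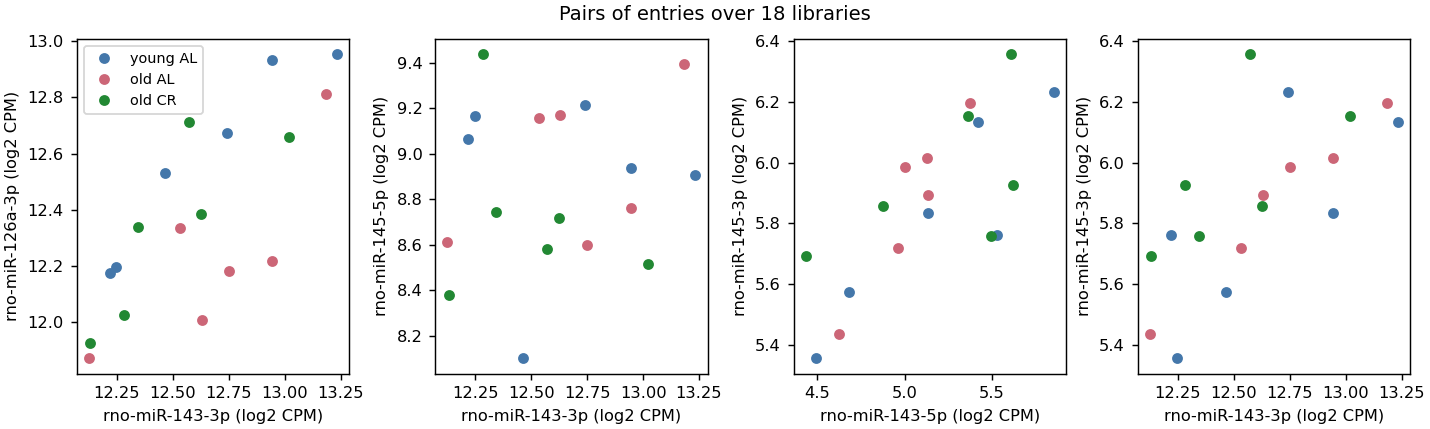
Log2 CPM of 4 pairs of entries, 1 point per library, coloured by group. miR-126a-3p follows miR-143-3p (r = 0.763) and miR-145-3p follows both miR-143-5p (r = 0.762) and miR-143-3p (r = 0.695). Under the same TMM scaling miR-145-5p does not follow miR-143-3p (r = 0.140).

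The arms of miR-143 divided the libraries into separate ranges. The ratio of miR-143-3p to miR-143-5p was 101 to 125 in 5 libraries, namely young AL replicates 1 and 2 and old CR replicates 15, 17 and 18. It was 180 to 225 in the other 13, with no library between these ranges. The old AL libraries all lay in the upper range, and the group differences were 0.20, -0.19 and -0.39 on the log2 scale (exact permutation p = 0.418, 0.435 and 0.128). miR-143-5p was at 45.1 to 57.9 CPM (median 48.9) in the 5 libraries. In the other 13 it was at 21.6 to 42.8 CPM (median 32.1), without overlap. miR-143-3p overlapped, at 4763 to 6852 CPM (median 5198) in the 5 and 4468 to 9625 CPM (median 6334) in the 13. The ratio that divides the libraries contains both arms, so a difference in either is partly built in. The numbers with which the labels of these 5 libraries begin are 15, 17, 18, 19 and 20, and those of the others are 3 to 14 and 16. The labels do not say what these numbers stand for, and their part in the ratio was not tested.

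Since old CR 15, 17 and 18 were among these 5, the comparisons of the other ratios were repeated without them, a choice made after the values were seen. The choice used miR-143-3p, which is also the denominator of miR-126a-3p over miR-143-3p. That ratio had a median of 0.971 in the 5 libraries and 0.838 in the other 13. Part of a change in it can therefore come from the choice. For miR-126a-3p over miR-143-3p the difference between old AL and young AL was then -0.39 (6 against 4 libraries, exact permutation p = 0.0286). Between old CR and old AL it was 0.19 (3 against 6, exact permutation p = 0.190), against 0.30 with all libraries. Between old CR and young AL it was -0.20 (3 against 4, exact permutation p = 0.171, where the smallest p possible is 0.0571). For miR-126a-3p over miR-145-5p the difference between old CR and old AL was instead larger, at 0.50 against 0.32 with all libraries (exact permutation p = 0.0476, adjusted 0.300). Between old AL and young AL it was -0.59 (exact permutation p = 0.0667), and between old CR and young AL -0.09 (exact permutation p = 0.857).

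The arms of the other hairpins did not fall into such ranges. miR-126a-3p exceeded miR-126a-5p by 47.2 to 124 times in young AL, 44.2 to 89.1 times in old AL and 50.2 to 76.5 times in old CR. miR-145-5p exceeded miR-145-3p by 5.76 to 14.0 times in young AL, 6.13 to 10.9 times in old AL and 4.67 to 11.4 times in old CR. None of the 6 exact permutation tests of these arm ratios gave p under 0.208, the value for miR-145 in old CR against old AL.

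**Figure D5:**
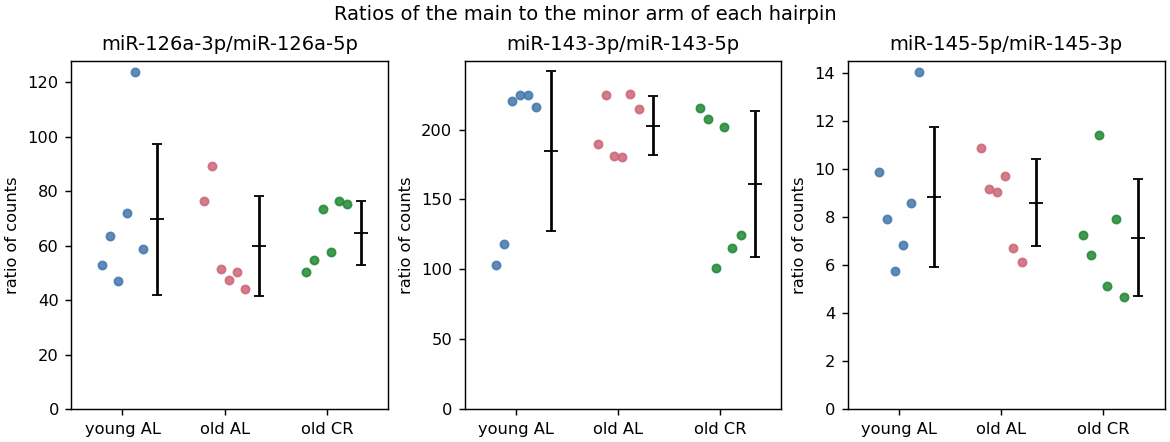
Ratio of counts of the main arm to the minor arm (vertical axis, from 0) for miR-126a, miR-143 and miR-145. Points are libraries and bars are mean ± SD (n = 6). For miR-143, 5 libraries of young AL and old CR lie at 101 to 125 and the other 13 at 180 to 225.

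Among 168 known miRNAs of at least 10 CPM on average, the levels most like those of miR-126a-3p over the 18 libraries were those of miR-195-5p (r = 0.867), miR-450b-5p (r = 0.809) and miR-140-5p (r = 0.785). Those most like miR-143-3p were miR-126a-3p itself (r = 0.763), miR-450a-5p (r = 0.716) and miR-450b-5p (r = 0.706). miR-145-5p was most like miR-10a-5p (r = 0.781), let-7b-5p (r = 0.710) and miR-125a-5p (r = 0.705), and so shared none of its 3 with the other main arms. These coefficients are descriptions of the most similar entries and were not tested.

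Counts may be shared between entries of this table, and 0 entries matched a member in every library. A predicted candidate held 1981 counts in old AL replicate 12, where miR-143-5p held 1990, and 2275 in old CR replicate 17, where miR-143-5p held 2428. Another candidate held 3776 counts in old AL replicate 12 beside 3928 of miR-145-3p, and 3271 in old CR replicate 13 beside 3161. These candidates had no counts in the other libraries, so the minor arms are uncertain in replicates 12, 13 and 17.

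The antisense miRNA at the Egfl7 locus was much rarer. rno-miR-126b is read from the strand opposite to miR-126a and overlaps 17 bases of miR-126a-5p.
rno-miR-126b: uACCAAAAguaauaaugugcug
It held 39 to 135 counts per library and averaged 1.38 ± 0.537 CPM in young AL, against 1.42 ± 0.324 in old AL and 1.33 ± 0.522 in old CR (SD, n = 6 each). Its log2 fold changes were 0.05, -0.06 and -0.09 (edgeR adjusted p 0.954, 0.956 and 0.974). RefSeq uses the symbols the other way round, giving rno-miR-126a under Mir126b, and entries were matched by the names of the mature arms.

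Other miRNAs of endothelium and angiogenesis were mostly not called either. Of 43 entries of 20 such miRNAs, 39, 38 and 39 were tested in old AL against young AL, old CR against young AL and old CR against old AL. In old AL against young AL, 0 rose and 1 fell, beside 3.28% called of all entries, and 0 were called in both other comparisons, beside 9.32% and 0.272%. At an unadjusted p under 0.05 (edgeR) there were 7, 1 and 2 of them, beside 171 of 732, 186 of 730 and 88 of 736 of all entries. The entry called was miR-24-1-5p, the minor arm of a miR-24 hairpin clustered with miR-23b and miR-27b, which fell with age, from 14.4 ± 3.38 CPM to 8.73 ± 1.83 (log2 fold change -0.73, edgeR adjusted p 0.0376). It was at 12.5 ± 2.72 CPM in old CR (log2 fold change 0.52 against old AL, edgeR adjusted p 0.392). The median log2 fold change of the tested entries was 0.09, 0.13 and -0.10 in the 3 comparisons.

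Where none was called, the lowest p of this list belonged to miR-17-5p and miR-23a-3p in old CR against young AL. In old CR against old AL it belonged to miR-23a-3p and miR-24-1-5p. miR-17-5p, of the miR-17-92 cluster known in angiogenesis, was at 12.6 ± 2.57 CPM in young AL and 17.3 ± 3.03 in old CR (log2 fold change 0.45, edgeR adjusted p 0.137). In old AL it was at 18.6 ± 2.61 CPM (log2 fold change 0.56 against young AL, edgeR adjusted p 0.108). miR-23a-3p, of a family known in vessel sprouting, was at 519 ± 54.8 CPM in young AL, against 596 ± 129 in old AL and 435 ± 67.9 in old CR. Its log2 fold change in old CR was -0.26 against young AL (edgeR adjusted p 0.198) and -0.45 against old AL (edgeR adjusted p 0.392).

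Of 18 entries of 9 miRNAs known in the smooth muscle phenotype, 16, 17 and 17 were tested. In old AL against young AL 1 rose and 1 fell, in old CR against young AL 1 rose, and 0 were called in old CR against old AL, beside 3.28%, 9.32% and 0.272% of all entries. At an unadjusted p under 0.05 (edgeR) there were 6, 3 and 0 of them, beside 171 of 732, 186 of 730 and 88 of 736 of all entries. miR-22-3p, which favours the contractile state of smooth muscle but is also abundant in striated muscle, fell with age, from 2071 ± 447 CPM to 1381 ± 140 (log2 fold change -0.59, edgeR adjusted p 0.0353). miR-31a-5p, known to favour smooth muscle proliferation, rose from 0.0639 ± 0.0402 CPM in young AL to 0.766 ± 0.484 in old AL (log2 fold change 3.56, edgeR adjusted p 0.00383) and 1.62 ± 2.02 in old CR (log2 fold change 4.62, edgeR adjusted p 0.00377). The level of miR-31a-5p lay below that of every member, and these miRNAs are not limited to vessels.

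Where none was called in this list, the lowest p belonged to miR-31a-3p and miR-204-5p, in old CR against old AL. miR-31a-3p, the minor arm, was at 0.00727 ± 0.0114 CPM in old AL and 0.0358 ± 0.0282 in old CR (edgeR adjusted p 0.419). miR-204-5p was at 22.0 ± 4.94 and 28.3 ± 6.10 CPM (log2 fold change 0.37, edgeR adjusted p 0.459). The median log2 fold change of the tested entries was 0.14, 0.19 and 0.05.

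Markers of other cell types gave 0 edgeR calls in every comparison. At an unadjusted p under 0.05 there were 2 of 8 leukocyte and platelet entries and 1 of 4 erythroid entries in old AL against young AL, and 1 of 4 erythroid entries in old CR against old AL. Over all entries the counts at that p were 171 of 732 and 88 of 736. The erythroid entries of miR-451 and miR-144 summed to 3.43 to 11.8 CPM over all libraries, and the fibroblast entries of miR-199a and miR-214 to 1035 to 2226 CPM. The leukocyte and platelet entries had a median log2 fold change of 0.78 with age, where 8 of 8 were higher, and of -0.27 in old CR against old AL. Their summed level had a lower median in old AL (140.9 CPM) than in young AL (158.7 CPM). Most of that sum was miR-150-5p, which averaged 129 CPM in young AL. The 611 CPM of old AL replicate 8 stood alone. The 12 tested striated muscle entries had medians of 0.13, -0.04 and -0.17, and the defining markers miR-1 and miR-133a were present in every library.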

How the data were processed

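Small RNA libraries of gastrocnemius muscle from 18 rats were prepared by the authors with the NEBNext small RNA kit. The authors trimmed adapters with Cutadapt (1.2.1) and low-quality ends with Sickle, named and predicted miRNAs with miRDeep2, and deposited raw whole counts per miRNA, without normalization. The submitters' processing notes also name Bowtie2 (2.4.0) and the build Rnor_6.0, with no role. How reads matching more than 1 miRNA were handled is not given in the sources used here. No coordinates are printed, since the reference tables are of GRCr8.

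Counts were compared with edgeR 4.0.16 in R 4.3.3 (TMM, quasi-likelihood test with robust estimation), fitted separately to the 12 libraries of every comparison. Tests covered all entries with 10 or more counts summed over those libraries, with Benjamini-Hochberg adjustment across them, and a call needed a fold change of 1.5 or more together with an adjusted p of 0.05 or less. The scripts were tested on simulated data. Log2 CPM carries a prior count of 0.5. Ratios within a library were compared by exact two-sided permutation tests over 924 arrangements (scipy 1.17.1), and correlations by 100000 permutations. Counting error covers reads only, since they carry no molecular identifiers, and is small beside the spread between rats at 869 or more counts per member and library. Depth was 34940346 to 83110905 counts per library, in which counts shared between entries were not removed.

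The miRNAs named are the 6 members, the 3 known miRNAs most like each main arm, entries sharing counts with a member, rno-miR-126b, and the called or 2 lowest-p entries of each vascular list. Old AL replicate 8 and old CR replicate 18 were named for their leukocyte miRNAs after the values were seen. The members and lists were chosen with earlier results of these data known. Alternatives were other scalings (RLE, upper-quartile, library totals, totals outside the miR-1 family, rno-miR-101a-3p), DESeq2 1.42.0, other filters, a single fit, shared entries counted once, known miRNAs only, medians of the ratios and left-out libraries. Columns left unused numbered 0. The RT-qPCR, target and cell culture data of the study are not analysed here.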

Additional observations from a re-analysis of the deposited data

Results flagged for a closer look

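The level of rno-miR-145-5p in young AL replicate 3 was 8.10 on the log2 CPM scale, against 8.91 to 9.22 in the other 5 young AL libraries, a gap of 0.725 of the range of the group. In old CR replicate 15 it was 9.44, against 8.38 to 8.74 in the other 5 old CR libraries, a gap of 0.656 of the range. Both gaps exceed Dixon's 95% critical value for 6 samples, which chance passes in about 1 of 20 groups, and 36 groups were checked for 2 such gaps. Without old CR replicate 15 the log2 fold change of miR-145-5p moved from -0.18 to -0.35 against young AL (edgeR adjusted p 0.264) and from -0.20 to -0.39 against old AL (edgeR adjusted p 0.359). Without young AL replicate 3 it moved from 0.03 to -0.096 in old AL (edgeR adjusted p 0.820) and from -0.18 to -0.30 in old CR (edgeR adjusted p 0.366), both against young AL.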

How the results depend on the processing

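None of the 6 entries was called under any of the 82 alternative settings of the 3 comparisons, and no difference in ratio passed the correction under any of 21. Leaving out libraries in turn moved the log2 ratio of miR-126a-3p to miR-145-5p in old CR against young AL between -0.20 and 0.14, through 0. The number of pairs of members that correlated was 15 with library totals and 8 with the total outside the miR-1 family, against 4 with TMM; the points share their scaling, and the cause was not tested. Apart from the correlation of miR-126a-5p and miR-145-5p, which turned from -0.45 to 0.49 with library totals (adjusted permutation p = 0.0393), the values that changed sign passed no test.

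With each library left out in turn, log2 fold changes ranged in old AL against young AL from -0.051 to 0.16 for miR-143-3p, -0.035 to 0.14 for miR-145-3p and -0.096 to 0.092 for miR-145-5p; in old CR against young AL from -0.10 to 0.18 for miR-143-5p; and in old CR against old AL from -0.12 to 0.078 for miR-126a-5p and -0.0017 to 0.16 for miR-145-3p. The log2 ratio differences ranged from -0.15 to 0.13 for miR-126a-3p to miR-126a-5p in old CR against young AL, from -0.12 to 0.14 for miR-145-5p to miR-145-3p in old AL against young AL, and for miR-143-3p to miR-145-5p from -0.13 to 0.13 in old AL against young AL, -0.12 to 0.21 in old CR against young AL and -0.13 to 0.21 in old CR against old AL.

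Signs also turned as follows. In old AL against young AL, miR-143-3p was -0.016 with filterByExpr, -0.010 against rno-miR-101a-3p and -0.031 without young AL replicates 1 and 2. miR-145-5p was -0.0074 with filterByExpr and -0.054 against rno-miR-101a-3p, and miR-145-3p was -0.0024 and -0.044. Without young AL replicates 1 and 2, miR-143-5p was 0.088, and the ratio differences were -0.13 for miR-143-3p to miR-143-5p, 0.022 for miR-145-5p to miR-145-3p and -0.20 for miR-143-3p to miR-145-5p (-0.18 in old CR against young AL). With medians in place of means they were -0.11, 0.14 and -0.11, and 0.094 for miR-126a-3p to miR-126a-5p in old CR against young AL. In old CR against young AL, miR-143-5p was -0.041 with filterByExpr, -0.017 with no filter, -0.0027 with shared entries counted once, -0.017 with the total outside the miR-1 family and -0.079 with upper-quartile factors. In old CR against old AL, miR-126a-3p was -0.20 with library totals and -0.040 with the total outside the miR-1 family, and miR-145-3p was -0.14, -0.040 and, with upper-quartile factors, -0.030. Without the 5 libraries of low miR-143 arm ratio, chosen after the data were seen, old CR against old AL gave -0.0013 for miR-126a-3p, 0.11 for miR-126a-5p, -0.19 for miR-143-5p, -0.060 for miR-145-3p and a ratio difference of -0.093 for miR-126a-3p to miR-126a-5p, and old CR against young AL gave 0.037 for miR-126a-5p and -0.029 for miR-143-5p.

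Over all entries, counts of calls depended on the tool: DESeq2 called 84, 109 and 19 against 24, 68 and 2. No paired analysis was possible because the groups were made up of different rats. Each member had 869 or more counts per library, so counting error was small, whereas 6 rats a group left intervals of about 0.4 to 0.6 on either side of a log2 fold change.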
